A study of Arabidopsis thaliana with 4 samples.

Results

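Stomata are the pores of the leaf epidermis, each flanked by a pair of guard cells that arise from a dedicated cell lineage. The 10 genes described here act along that lineage, and they were taken by their gene identifiers from a table of 32548 genes. They are SPCH, MUTE, FAMA and ICE1 (transcription factors), EPF1, EPF2 and STOMAGEN (secreted peptides), TMM (a receptor) and BASL and POLAR (polarity proteins). All 10 were in the table, and all 10 reached the mean normalised read count of 1 that was needed for testing, as did 23256 genes in all.

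RNA was sequenced from whole Arabidopsis thaliana seedlings, 10 days old, which had been kept on plates at 22 °C under 16 h light and 8 h dark. The groups were bdt1 mutant seedlings, labelled bdt1-/- (and btl1-/- in the source label), and wild-type Col-0 seedlings, the ecotype in which the mutant was also made. Each genotype had 2 libraries, described by the submitters as biological replicates. The kind of bdt1 allele is not given in the sources used here. P-values weigh the genotype difference against the spread between the 2 libraries of each genotype. Information on that spread is shared across genes, and only these 4 libraries are covered. Recovered totals were 22914893 and 25120921 reads in bdt1 and 23529796 and 27435729 in Col-0. BDT1 is known, from background knowledge and not from the tables, as AT4G11560, whose normalised read count was 313 and 324 in bdt1 against 1135 and 1117 in Col-0 (limma adjusted p = 3.9e-05). The libraries held both leaf and root transcripts: none of the 10 mesophyll and 12 root markers examined was at 0 reads.

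In the stomatal lineage, the basic helix-loop-helix (bHLH) factor SPCH starts asymmetric divisions, MUTE ends them and commits the cell to become a guard mother cell, and FAMA drives the last step into guard cells. Each of the 3 works as a dimer with ICE1 or its close relative SCRM2. EPF2 and EPF1 are peptides that restrain the lineage through receptor kinases of the ERECTA family and the receptor-like protein TMM, and STOMAGEN competes with them and promotes it. BASL and POLAR mark 1 side of the dividing cell, and that polarity makes the daughters unequal.

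The bHLH factors bind the E-box, CANNTG, and the 250 bases before the annotated transcript start are shown for the 2 members with the largest differences between genotypes (EPF2 and MUTE), for TMM and for FAMA, which hardly differed. Sequences are 5′ to 3′ on the gene's strand from the RefSeq TAIR10.1 assembly, and capitals mark each CANNTG.
EPF2: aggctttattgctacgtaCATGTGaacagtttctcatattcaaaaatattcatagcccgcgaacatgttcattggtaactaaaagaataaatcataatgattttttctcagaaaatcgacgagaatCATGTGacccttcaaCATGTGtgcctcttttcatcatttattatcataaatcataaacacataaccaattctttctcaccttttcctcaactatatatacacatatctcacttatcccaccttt
MUTE: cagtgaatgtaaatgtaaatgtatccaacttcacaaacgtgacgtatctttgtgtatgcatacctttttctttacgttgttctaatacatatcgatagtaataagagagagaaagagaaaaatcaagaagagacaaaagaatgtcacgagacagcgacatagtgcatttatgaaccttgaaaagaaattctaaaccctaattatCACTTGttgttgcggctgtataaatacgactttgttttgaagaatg
TMM: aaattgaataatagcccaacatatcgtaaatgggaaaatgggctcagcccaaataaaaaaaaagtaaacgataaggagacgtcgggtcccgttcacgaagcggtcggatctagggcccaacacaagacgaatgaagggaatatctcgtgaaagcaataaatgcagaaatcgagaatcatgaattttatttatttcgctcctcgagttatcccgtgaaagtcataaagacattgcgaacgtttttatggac
FAMA: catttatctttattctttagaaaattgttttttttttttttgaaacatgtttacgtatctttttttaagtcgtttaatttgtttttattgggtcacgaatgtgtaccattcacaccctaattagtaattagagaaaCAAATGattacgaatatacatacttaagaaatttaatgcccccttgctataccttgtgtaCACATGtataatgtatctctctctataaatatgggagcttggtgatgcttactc
The windows are chr1:12472618-12472867 (plus strand) for EPF2, chr3:1846192-1846441 (plus) for MUTE, chr1:30129650-30129899 (minus) for TMM and chr3:8718212-8718461 (minus) for FAMA. EPF2 held 3 E-boxes, each reading CATGTG, which begin 232, 124 and 109 bases before the start. MUTE held 1, CACTTG, 46 bases before the start. FAMA held 2, CAAATG and CACATG, at 114 and 54 bases, and TMM held 0. Among the members not shown, SPCH, ICE1 and STOMAGEN held 0, BASL held 1, and EPF1 and POLAR held 2 each. A relation between the number of E-boxes and the genotype difference was not tested. The motif reads as CANNTG on both strands, so each site was counted once. CACATG in FAMA is CATGTG read on the other strand, and CATGTG was also found in EPF1 and BASL. Of 27443 protein-coding genes, 55.3% held at least 1 CANNTG in the same window, and 5.69% held 3 or more. CATGTG, in either reading, was found in 11.1% of these genes. The G-box CACGTG, a special case of the E-box, was found in 6.49% of them and in 0 of the 4 shown. A match is a description of the letters in this window and not a binding site.

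Across the 10 genes, 9 had lower mean values in bdt1 than in Col-0, but none passed the test. The test was limma on log2(normalised read count + 1), fitted to all 23256 genes with Benjamini-Hochberg adjustment and a threshold of 0.05. It called 0 of the 10 higher and 0 lower, where 1.2% of all tested genes were called higher and 0.856% lower (2.06% in either direction). At an unadjusted p under 0.05 in limma, 5 of the 10 were lower and 0 higher, against 7.76% and 8.61% of all tested genes. A negative sign, found in 9 of the 10, was found in 49.3% of all tested genes. With edgeR's quasi-likelihood test on recovered read counts, 7 of the 10 had an unadjusted p under 0.05, as did 16.3% of all genes. That test called 1, EPF2, lower, and 0 higher, against 1.12% and 1.45% of all genes. DESeq2 called 0 in either direction, where 1.09% of the 21001 genes that it gave an adjusted p were called lower and 1.25% higher. In DESeq2, 3 of the 10 had an unadjusted p under 0.05, against 8.24% of all 23256 genes. In 8 of the 10 both bdt1 libraries lay below both Col-0 libraries, which was the case for 23.7% of all tested genes. None lay wholly above, against 25.2% of all tested genes. The median log2 fold change of the 10 was -0.28, against 0.00 for all tested genes. The 10 genes were measured in the same libraries, so they are not independent observations, and they were chosen with earlier results known. Because whole seedlings were sequenced, fewer cells of the lineage and less RNA per cell cannot be told apart.

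**Figure D1:**
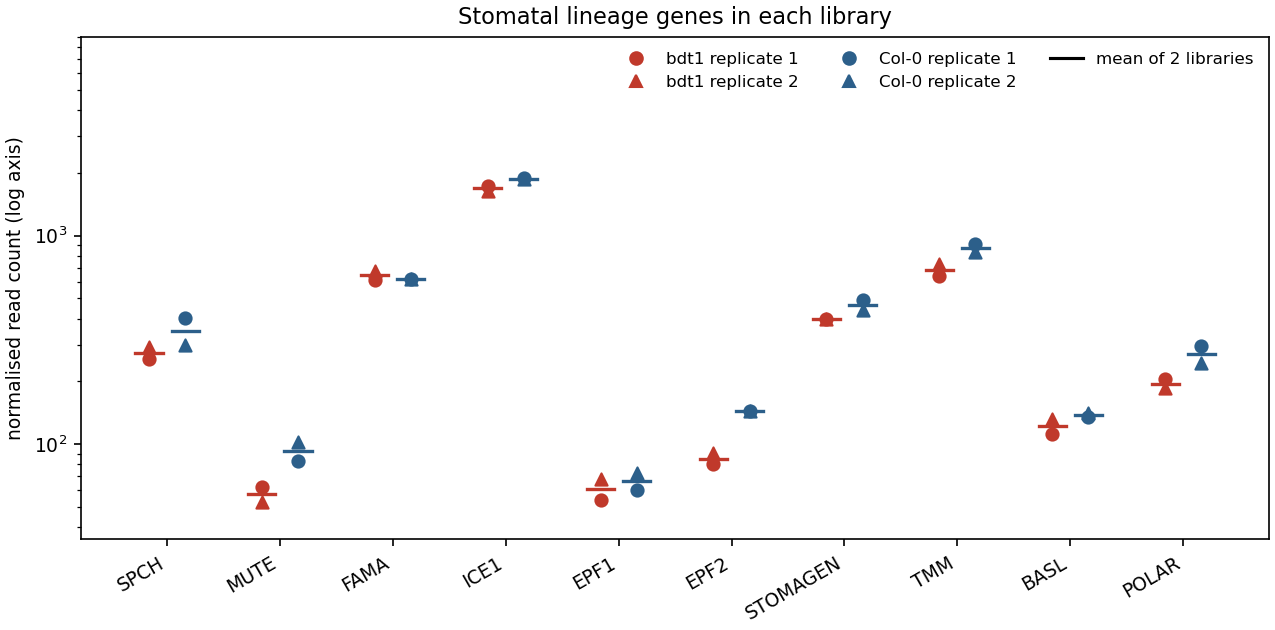
Normalised read count (log axis) of each stomatal lineage gene in the 2 bdt1 libraries (red, left) and the 2 Col-0 libraries (blue, right), with circles for replicate 1, triangles for replicate 2 and bars at the means. The bdt1 points lie wholly below the Col-0 points in 8 of 10 genes, and overlap them in FAMA and EPF1.

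EPF2 (AT1G34245, chromosome 1, 12472868 to 12473974, plus strand) encodes the peptide that limits entry into the lineage and is made by its earliest cells. Its normalised read count was 80.1 and 90.1 in bdt1 and 145 and 144 in Col-0. The Col-0 libraries were almost equal, and both bdt1 libraries lay far below them. That near-equality is closer than counting error alone sets: 137 and 157 Col-0 reads had exact Poisson 95% limits of 115 to 162 and 133 to 184. In bdt1, 76 and 92 reads had limits of 59.9 to 95.1 and 74.2 to 113. This was the largest difference among the 10, a log2 fold change of -0.76 (SE 0.17), or 40.9% lower, yet it did not pass in limma (adjusted p = 0.064). The edgeR quasi-likelihood test gave an adjusted p = 0.049 with the same genes kept, and 0.057 with edgeR's own filter on low counts, and DESeq2 gave 0.19. Over 19 other settings the adjusted p of EPF2 ran from 0.01 to 0.71. From the reads alone the ratio of bdt1 to Col-0 was 0.59, with an exact binomial 95% interval for counting error of 0.485 to 0.716.

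EPF1 (AT2G20875, chromosome 2, 8982863 to 8983814, minus strand), a related peptide of later precursor cells that spaces neighbouring stomata, was at 53.8 and 67.6 in bdt1 and 60.4 and 72.7 in Col-0, so the genotypes overlapped. On the log2 scale it differed by -0.13 (SE 0.23), far from passing in limma (adjusted p = 0.82), and the sign turned, to 0.03, without bdt1 replicate 1. Of the 3 peptides, EPF1 had the fewest reads, 51 and 69 in bdt1 and 57 and 79 in Col-0, and the counting interval of its ratio ran from 0.707 to 1.17. Whether EPF2 and EPF1 differed in their response to the mutation was not tested.

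STOMAGEN (AT4G12970, chromosome 4, 7585869 to 7587099, minus strand), also called EPFL9, is made in the inner leaf tissue and promotes stomata. It was at 399 and 398 in bdt1 and at 492 and 437 in Col-0. The bdt1 libraries were alike and below both Col-0 libraries, but the Col-0 libraries differed from each other by -0.17 on the log2 scale (replicate 2 minus replicate 1). Between the genotypes the difference was -0.22 (SE 0.10), which did not pass in limma (adjusted p = 0.31).

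MUTE (AT3G06120, chromosome 3, 1846442 to 1848259, plus strand) had the second largest difference. Its normalised read count was 62.0 and 52.8 in bdt1 and 82.7 and 102 in Col-0, with no overlap. The log2 fold change was -0.67 (SE 0.22), or 37.3% lower, and did not pass (limma adjusted p = 0.18). These values rest on few reads. In bdt1, 59 and 54 reads had exact Poisson 95% limits of 44.9 to 76.1 and 40.6 to 70.5, and in Col-0 78 and 111 reads had limits of 61.7 to 97.3 and 91.3 to 134.

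SPCH (AT5G53210, chromosome 5, 21586219 to 21589255, minus strand) was at 257 and 292 in bdt1 and at 400.2 and 299 in Col-0. The higher bdt1 library and the lower Col-0 library nearly met, and the Col-0 libraries differed from each other by more than the genotypes did. SPCH differed by -0.34 on the log2 scale (SE 0.15), short of the limma threshold (adjusted p = 0.31). The value was -0.13 without Col-0 replicate 1 and -0.55 without Col-0 replicate 2.

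FAMA (AT3G24140, chromosome 3, 8715118 to 8718211, minus strand) acts last of the 3 lineage factors. It was at 615 and 678 in bdt1 and at 622 and 619 in Col-0, so the Col-0 libraries lay between the bdt1 libraries. Its difference of 0.06 on the log2 scale (SE 0.08) was the sole positive value of the 10 and did not pass in limma (adjusted p = 0.77). It was -0.01 without bdt1 replicate 2. The counting interval of its ratio, 0.965 to 1.13, included no change.

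ICE1 (AT3G26744, chromosome 3, 9832667 to 9835279, minus strand), which also acts in cold signalling, was the most abundant member. It was at 1730.1 and 1643 in bdt1 and at 1890.3 and 1863 in Col-0. The groups did not overlap, and the log2 fold change was small, -0.15 (SE 0.06, limma adjusted p = 0.24). Its partner role is shared with SCRM2, a gene outside the 10, which passed the test and is described with the pathway genes.

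TMM (AT1G80080, chromosome 1, 30127819 to 30129649, minus strand) encodes a leucine-rich repeat protein without a kinase domain that sits with the ERECTA-family receptors. It was at 641 and 733 in bdt1 and at 909 and 832 in Col-0. No bdt1 library reached the Col-0 range, and the log2 fold change was -0.34 (SE 0.09), or 21.2% lower. Among the 10 it had the second smallest p (limma adjusted p = 0.11).

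POLAR (AT4G31805, chromosome 4, 15385280 to 15387097, plus strand), a scaffold that co-localises with BASL, was at 205 and 185 in bdt1 and at 296 and 245 in Col-0. Again the genotypes did not overlap (log2 fold change -0.46, SE 0.14, limma adjusted p = 0.15). POLAR shares 310 bases with AT4G31810 on the other strand, and reads there cannot be assigned without strand. AT4G31810 itself was at 531 and 611 in bdt1 and 627 and 619 in Col-0 (limma adjusted p = 0.53). No annotated gene overlaps the other 9 loci.

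BASL (AT5G60880, chromosome 5, 24488289 to 24489836, minus strand), which recruits signalling proteins to 1 side of the cell, was at 112 and 131 in bdt1 and at 135 and 140.4 in Col-0. The bdt1 libraries lay just below the Col-0 libraries. BASL differed by -0.19 on the log2 scale (SE 0.16), which did not pass in limma (adjusted p = 0.62). The counting interval of the ratio ran from 0.739 to 1.05.

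**Figure D2:**
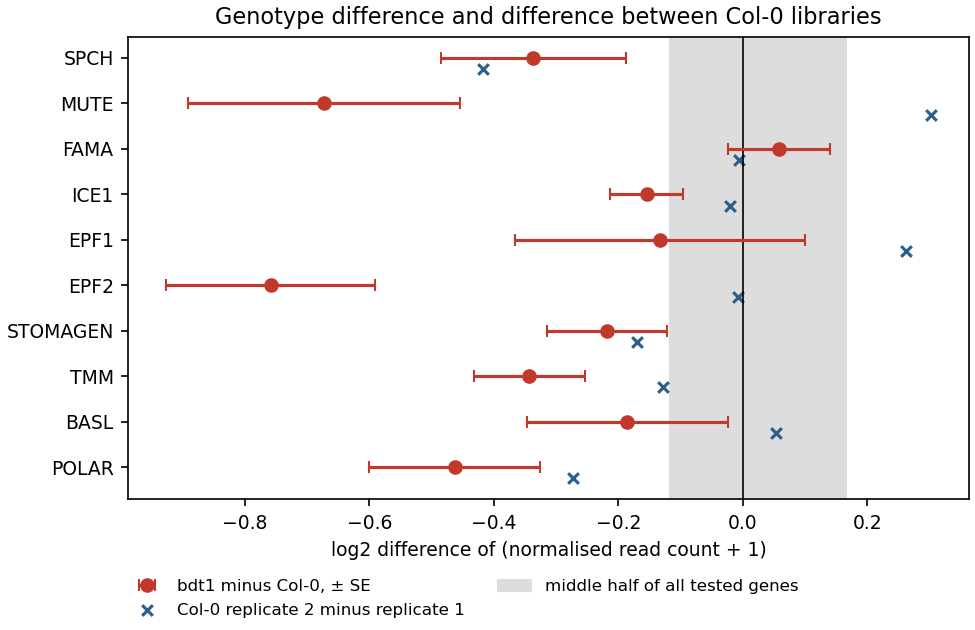
Log2 fold change (bdt1 minus Col-0, red points with SE) and the log2 difference between the 2 Col-0 libraries (blue crosses) for each gene, over the middle 50% of all tested genes (grey). EPF2 combines the largest genotype difference, -0.76, with Col-0 libraries that differ by -0.01, whereas for SPCH the Col-0 difference of -0.42 exceeds the genotype difference.

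The spread between libraries of 1 genotype set how far single members can be read. The difference between the Col-0 libraries was larger than the genotype difference in 2 of the 10 genes, SPCH and EPF1. The difference between the bdt1 libraries was larger in 3, FAMA, EPF1 and BASL. The Col-0 libraries did not differ in 1 direction: replicate 2 was lower than replicate 1 in SPCH (-0.42) and POLAR (-0.27) and higher in MUTE (0.30) and EPF1 (0.26).

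Levels of different genes were compared per kilobase of annotated exon. In Col-0, ICE1 was highest (750 and 739 per kilobase), followed by TMM (496 and 454) and STOMAGEN (499.9 and 444), whose libraries overlapped. FAMA followed alone at 262 and 261. POLAR, EPF2 and SPCH formed a group with overlapping libraries, at 193 and 160 for POLAR, 175 and 174 for EPF2 and 184 and 137 for SPCH. BASL (107 and 111) and MUTE (87.8 and 108) overlapped, and EPF1 was lowest (69.7 and 83.9).

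In bdt1 ICE1 was again highest (686 and 652). STOMAGEN (405 and 404) lay above TMM (350 and 400) with no overlap, though their nearest libraries, at 404.5 and 400.5, were almost equal. FAMA followed at 259 and 286. EPF2, at 96.8 and 109 per kilobase, was below both SPCH (118 and 134) and POLAR (134 and 121), and overlapped BASL (88.1 and 103). MUTE (65.9 and 56.1) and EPF1 (62.2 and 78.1) overlapped at the bottom. These orders are descriptions and were not tested.

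**Figure D3:**
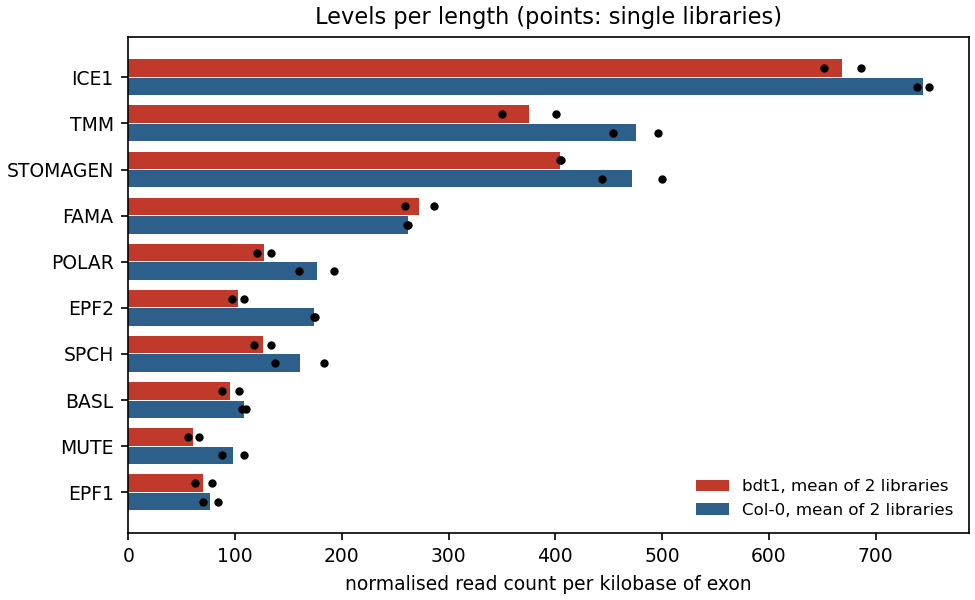
Normalised read count per kilobase of exon for each gene, as means of 2 libraries in bdt1 (red, upper bars) and Col-0 (blue, lower bars), with single libraries as black points. ICE1 is highest in both genotypes, and EPF2 is at 103 in bdt1 against 174 in Col-0.

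The wider pathway was described from lists of genes that act with these 10. Of 13 partners in transcription and division, SCRM2 was called lower and 0 were called higher, against 0.856% and 1.2% of all tested genes. Of the 13, 10 had negative values, against 49.3% of all tested genes. In 6 both bdt1 libraries lay below both Col-0 libraries and in 3 above, against 23.7% and 25.2%. SCRM2, the relative of ICE1, fell to 1445 and 1399 in bdt1, against 1805 and 1747 in Col-0 (log2 fold change -0.32, SE 0.06, limma adjusted p = 0.035). The call was lost with quantile normalisation (adjusted p = 0.053), with a pseudocount of 0.1 (0.0503), with limma's trend left out (0.29) and without bdt1 replicate 1 (-0.34) or 2 (-0.30). Leaving out either bdt1 library also ended the limma calls of AT4G11560, MKK9 and each marker gene named below, since 0 of all genes then passed. Leaving out limma's trend likewise ended the call of MKK9 and of each marker gene named below (adjusted p from 0.22 for LHCB3 to 0.35 for CAB3). CYCA2;3, a cyclin that promotes the division of the guard mother cell, was at 583 and 599 in bdt1 and 806 and 693 in Col-0 (adjusted p = 0.11). The list's median log2 fold change was -0.13. FLP and MYB88, which end the last division, had positive values of 0.23 and 0.17 that did not pass.

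Among receptors, none of 7 receptor kinases passed the test, where 2.06% of all tested genes did, and their median log2 fold change was -0.08. Of the 7, 5 were negative, against 49.3% of all tested genes. In 4 both bdt1 libraries lay below both Col-0 libraries and in 1 above, against 23.7% and 25.2%. ERECTA itself (ER) was at 3255 and 3273 in bdt1 and at 3439 and 3457 in Col-0. SERK4, a co-receptor, was at 569.7 and 553 in bdt1 and at 439 and 446 in Col-0 (limma adjusted p = 0.083), and SERK1 had a log2 fold change of -0.19. Of 10 genes of the MAP kinase cascade and its regulators, MKK9 was called lower and 0 higher, with a median of -0.02. Over all tested genes, 0.856% were called lower and 1.2% higher. Of these 10, 7 were negative, in 3 both bdt1 libraries lay below both Col-0 libraries and in 1 above. MKK9, a MAP kinase kinase that also acts in stress and ethylene signalling, fell to 243 and 328 in bdt1, against 532 and 889 in Col-0 (log2 fold change -1.28, SE 0.23, limma adjusted p = 0.03). The MKK9 call was also lost without Col-0 replicate 2 (-0.91, adjusted p = 0.068), with a pseudocount of 0.1 (0.053) and in DESeq2 (-1.32, 0.06). MPK3, which phosphorylates SPCH, did not pass (-0.26).

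Other peptides of the EPF family, with 2 proteases linked to them, had values of both signs. Of 10 listed, 9 were tested and none passed, with 4 negative and 5 positive values and a median of 0.20. Over all tested genes, 2.06% passed. In 1 of the 9 both bdt1 libraries lay below both Col-0 libraries and in 3 above. The gene not tested, AT1G80133, had 0 reads in all 4 libraries. ATSBT5.2, a subtilase also known as CRSP that cleaves EPF2, was at 592 and 644 in bdt1 and at 509.7 and 546 in Col-0 (log2 fold change 0.23, SE 0.09, limma adjusted p = 0.24). SDD1, a protease that limits stomatal number, was at 298 and 248 in bdt1 and at 356 and 365 in Col-0 (log2 fold change -0.41, SE 0.12, limma adjusted p = 0.14). EPFL4 had 17.9 and 15.6 in bdt1 and 11.6 and 9.12 in Col-0 (0.65, SE 0.41). None of 6 polarity partners passed (median -0.07), among them BRXL2 (-0.31) and BRX (-0.17), members of a family that acts with BASL at the cell edge. Of the 6, 5 were negative, in 2 both bdt1 libraries lay below both Col-0 libraries and in 0 above.

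Markers of mature guard cells had values of both signs. Of 15, 9 had positive and 6 negative log2 fold changes, and the median was 0.04. In 5 both bdt1 libraries lay above both Col-0 libraries and in 2 below, against 25.2% and 23.7% of all tested genes. KAT1, a guard cell potassium channel, was at 919 and 955 in bdt1 and 923 and 909 in Col-0. TGG2, a myrosinase of guard cells and myrosin cells, was the 1 called, and fell (-0.31, SE 0.06, limma adjusted p = 0.034), but not with quantile normalisation (-0.22, adjusted p = 0.092). Over all tested genes, 0.856% were called lower and 1.2% higher. Reads of TGG2 could be shared with its neighbour and close copy TGG1, which had a log2 fold change of -0.02. The summed level of the guard cell list was 82018.5 and 77143.3 in bdt1 and 81090.6 and 87199.5 in Col-0, mostly from TGG1 and TGG2, and no marker was at 0.

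Markers of dividing cells and of the epidermis had mostly negative values. Over all tested genes, 49.3% were negative, 23.7% had both bdt1 libraries below both Col-0 libraries and 0.856% were called lower. Of 18 dividing-cell markers, 17 had negative values (median -0.18), in 11 both bdt1 libraries lay below both Col-0 libraries, and KN, a syntaxin of the new wall between daughter cells, was called lower (-0.42, SE 0.08, limma adjusted p = 0.038). KN missed the threshold without Col-0 replicate 2 (-0.46, adjusted p = 0.069) and with a pseudocount of 0.1 (0.058). Their summed level was 11896.1 and 11893.4 in bdt1 against 14531.8 and 13013.4 in Col-0. Of 9 epidermis markers, 2 were called lower, and 7 were lower in both bdt1 libraries than in both Col-0 libraries (median -0.16). Wholly above Col-0 lay 0 of the dividing-cell and 1 of the epidermis markers, against 25.2% of all tested genes. PDF1 and LTP1, genes of the outer cell layer, fell by 0.39 and 0.33 on the log2 scale (limma adjusted p = 0.032 and 0.039). The LTP1 call was lost with quantile normalisation (adjusted p = 0.079), with no filter (0.051) and with a pseudocount of 0.1 (0.057), and the PDF1 call with that pseudocount (0.0503). The epidermal sums were 45779 and 45639.3 in bdt1 against 52544.4 and 55010.4 in Col-0. LTP1 alone gave 17487.9 and 18256.2 of those sums in bdt1 and 21367.9 and 23667.8 in Col-0. The part of these and the other cell type markers in the values of the stomatal lineage genes was not tested.

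Mesophyll and trichome markers were also mostly negative. Of 10 mesophyll markers, 7 were negative, 7 lay wholly below Col-0 and 2 wholly above, and the median was -0.12. Over all tested genes these shares were 49.3%, 23.7% and 25.2%. The test called 4 of the mesophyll markers lower, against 0.856% of all tested genes, and these were antenna protein genes of the LHCB type. The other mesophyll markers differed less: RBCS1A by -0.13, RCA by -0.12, RBCS1B by -0.02, RBCS2B by 0.02, RBCS3B by 0.05 and CA1 by 0.07. Of 7 trichome markers, 5 were negative, 4 lay wholly below Col-0, 1 lay wholly above and none passed (median -0.14). The 1 above, TRY, had the largest change of that list, at 55.9 and 66.6 in bdt1 and 33.9 and 34.9 in Col-0. Its log2 fold change was 0.81 (SE 0.25, limma adjusted p = 0.16). Of 12 root markers, 4 were negative, 0 lay wholly below Col-0, 4 lay wholly above and none passed (median 0.16). CAB1, CAB3, LHCB2.1 and LHCB3 fell by 0.46, 0.45, 0.60 and 0.65 on the log2 scale (limma adjusted p = 0.03, 0.037, 0.0056 and 0.0034). The CAB1 call was lost with quantile normalisation (-0.34, adjusted p = 0.26) and the CAB3 call with a pseudocount of 0.1 (0.06). CAB1 and CAB3 are near-identical copies, so how reads were divided among them is uncertain. Summed levels were 875.4 and 913.4 in bdt1 and 1005.4 and 1011.3 in Col-0 for trichome markers and 2597.1 and 2595.2 in bdt1 and 2619.6 and 2426 in Col-0 for root markers. The summed mesophyll level was 981715.6 and 992159.7 in bdt1 against 1063078 and 1095558.5 in Col-0. CAB1 alone gave 138323.6 and 140372.8 of it in bdt1 and 203039.2 and 179705.2 in Col-0.

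**Figure D4:**
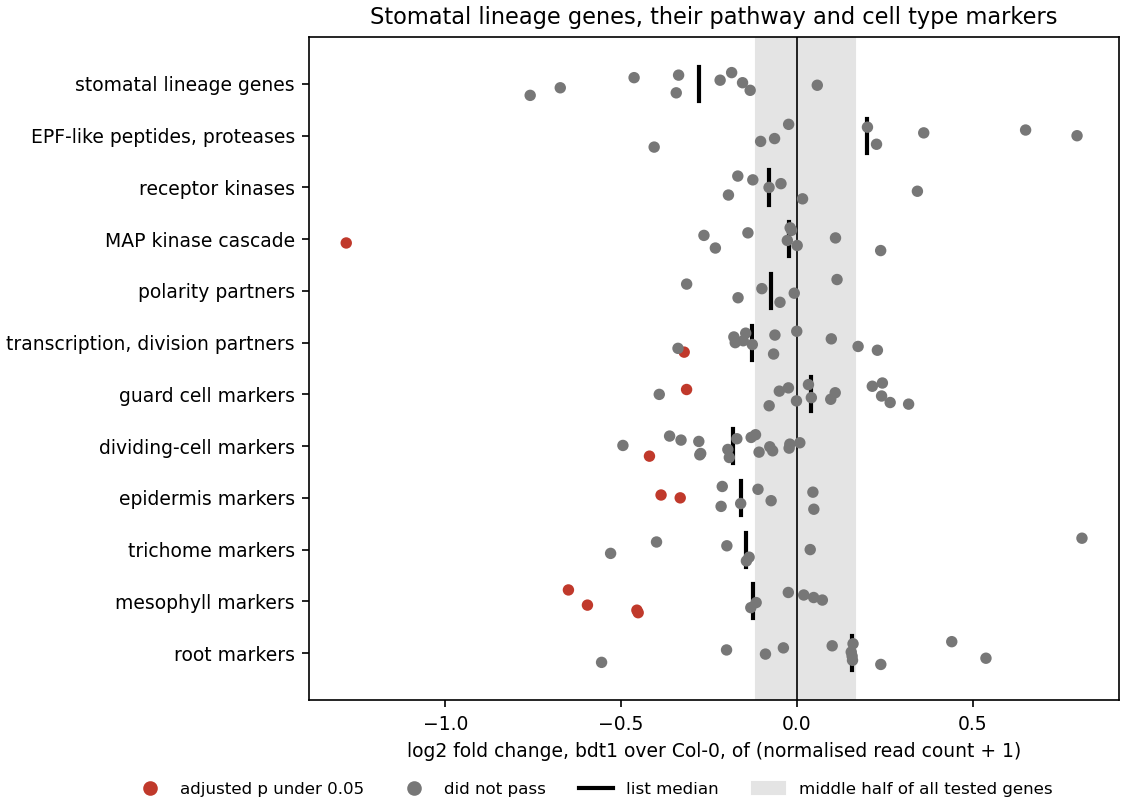
Log2 fold change (bdt1 over Col-0) of each tested gene in the stomatal lineage set, 5 pathway lists and 6 marker lists, with red points for genes that passed the test, grey points for those that did not, black bars at list medians and the middle 50% of all tested genes in grey. The stomatal lineage genes have the lowest median, -0.28, and guard cell markers have a median of 0.04, with values from -0.39 to 0.32.

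The mean profile of the 10 genes over the 4 libraries, centred on the log2 scale, was -0.20 and -0.12 in bdt1 and 0.18 and 0.14 in Col-0. TMM lay nearest to that profile among the members (distance 0.105), and MUTE (0.479) and EPF2 (0.443), which differed more between genotypes, lay farthest. Among 17557 other genes with a mean of at least 50, those with the smallest Euclidean distance over 4 libraries were AT3G20260 (0.0157), AT3G56900 (0.0209), G6PD3 (0.0227), AUG7 (0.0366) and AT3G47675 (0.038). None of these 5 passed the test.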

How the data were processed

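RNA from 4 libraries of Arabidopsis seedlings, 2 of bdt1 and 2 of Col-0, was sequenced in paired reads of 150 bases, per the labels. Per the submitters' processing notes, the authors used HISAT2 2.2.0, the genome TAIR10 and edgeR. For the counting tool, annotation release and use of strand, the entry is: not given in the sources used here.

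Each deposited signal value is a normalised read count with the form of an edgeR pseudo-count, that is, moved by the authors to a shared library size through negative binomial quantiles. This reading comes from the values: inverting the adjustment at a fitted dispersion of 0.00544 gave whole counts for 100% of values within 0.001 reads. The inversion and the tests were also checked on simulated data. Since adjusted values are not raw counts, the main test was limma 3.58.1 (R 4.3.3) with a mean-variance trend on log2(value + 1), for genes with a mean of at least 1, with Benjamini-Hochberg adjustment over all of them. This scale understates the change of low genes. Depth was 22914893 to 27435729 recovered reads per library, and intervals cover counting error only, since amplified reads are not independent molecules. edgeR 4.0.16 and DESeq2 1.42.0 were run on recovered counts. Genes, positions and exon lengths came from TAIR10.1, which held all 32548 identifiers.

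The members and lists were chosen with earlier results of these data known, and the identifier of ATSBT5.2 was corrected after values were seen. All 10 members are named. From each pathway list the called genes and the 2 with the largest change among genes with a mean of at least 10 are named, and from marker lists up to 4 called genes. Other genes (ER, FLP, MYB88, KAT1, TGG1, AT1G80133, ATSBT5.2 and AT4G31810) fall outside this rule and were picked with their values in view. The same holds for the trichome marker TRY and the mesophyll markers that were not called. Alternatives were other normalisations, filters, pseudocounts and tests, a replicate block, and each library left out; 5 edgeR settings were added after seeing the data. Python 3.11.15 and matplotlib 3.10.9 were used for sequences and figures.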

Additional observations from a re-analysis of the deposited data

How the results depend on the processing

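Under 19 other settings, 5 of them chosen after seeing the data, the 10 genes gave 0 calls in the higher direction throughout. Calls in the lower direction, 0 in the main limma fit, were 1 in limma with quantile normalisation and 1 with edgeR on recovered counts (EPF2 in both). In limma with the replicate block they were 3 (EPF2, TMM and POLAR, adjusted p = 0.01, 0.01 and 0.027). Over all 23256 genes, lower calls were 199 in the main fit and 188 with quantile normalisation. They were 260 with edgeR and 917 with the replicate block. The labels do not say that replicate numbers mark a shared batch, and deviations of libraries with the same number were hardly correlated (0.01 over 20355 genes), so the numbers were not taken as pairs. Over the settings that leave out 1 library, by limma or by edgeR, the count of lower calls ran from 0 to 4, and the median log2 fold change of the 10 from -0.36 to -0.23. The count of 4 was edgeR without Col-0 replicate 2 (SPCH, TMM, EPF2 and POLAR), and edgeR without Col-0 replicate 1 called 2 (MUTE and EPF2). Such fits take their spread from the genotype that keeps 2 libraries and assume that the lone library varies likewise. In edgeR without Col-0 replicate 2 or 1, calls over all genes were 2498 and 2115, against 598 with all 4 libraries. The number of genes with both bdt1 libraries below both Col-0 libraries was 8 under each of 3 other scalings. FAMA turned to -0.012 without bdt1 replicate 2 in limma and in edgeR, and ranged up to 0.13 over limma's settings without 1 library. EPF1 turned to 0.029 in limma and 0.016 in edgeR without bdt1 replicate 1, and to 0.0092 in edgeR without Col-0 replicate 2, with a lowest limma value of -0.29. The cause was not tested. Without bdt1 replicate 1 or 2, limma made 0 calls over all genes (1573 and 1611 had an unadjusted p under 0.05), so its calls of SCRM2, MKK9 and the marker genes ended there. In edgeR, the calls of SCRM2, TGG2, LTP1 and CAB1 were also lost without either of those libraries. The edgeR call of KN was lost without bdt1 replicate 1 (-0.33) and that of PDF1 without bdt1 replicate 2 (-0.33). MKK9, CAB3, LHCB2.1 and LHCB3 kept their calls in edgeR without either. Of the 19 settings, the direction and call were kept in 12 for SCRM2, 13 for MKK9, TGG2, KN and CAB1, 14 for PDF1, 11 for LTP1, 15 for CAB3 and 16 for LHCB2.1 and LHCB3. Their lowest adjusted p was 6e-05 for SCRM2, 2.8e-13 for MKK9 and 6.2e-06 for KN, and the highest was 0.71 for each of these 3. Over all genes, limma called 479, and 48 with the trend left out, 317 with a pseudocount of 0.1, 1818 with the replicate block and 1316 without Col-0 replicate 1. MUTE, EPF1, EPF2 and BASL had 51 to 157 reads per library, and the counting interval of the ratio included 1 for EPF1 and BASL but not for MUTE and EPF2.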
